A study of Mus musculus with 6 samples.

Results

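The iron storage and iron-responsive genes described here are Fth1, Ftl1, Tfrc, Ireb2, Aco1, Hmox1, Slc11a2, Slc40a1 and Ncoa4. They were matched by symbol in the deposited gene table, and all 9 of the 9 listed genes were found among its 13931 genes. RNA-sequencing measured their transcripts in whole lenses of newborn mice at postnatal day 0, in 3 Control and 3 Celf1cKO libraries, each from a pool of 2 lenses. Celf1 encodes an RNA-binding protein that acts on the splicing, stability and translation of other transcripts. The Celf1cKO mice carried a germline knockout allele (Celf1lacZKI), a conditional allele with exon 5 between loxP sites (Celf1flox) and the Pax6GFPCre transgene, which drives Cre recombinase in the lens from the placode onward. The sample labels give the Control genotype as Celf1lacZKI/+, so that both groups would carry the germline knockout allele. The study's methods instead name Celf1flox mice without Cre as the usual controls, and which of these the Control libraries are was not settled here. All mice were of mixed C57BL/6J and FVB background.

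Cells store iron inside a shell built of ferritin heavy chains (Fth1), which oxidise the metal, and ferritin light chains (Ftl1), which help to lay down the mineral core. Iron enters through the transferrin receptor (Tfrc), crosses the endosomal membrane through Slc11a2 (DMT1), leaves the cell through ferroportin (Slc40a1), is released from ferritin when Ncoa4 carries it to lysosomes, and is freed from heme by heme oxygenase (Hmox1). When iron is scarce, the iron regulatory proteins encoded by Aco1 (IRP1) and Ireb2 (IRP2) bind a small RNA hairpin, the iron-responsive element. In the 5′ untranslated region (UTR) of ferritin and ferroportin transcripts this binding blocks translation, and in the 3′ UTR of Tfrc it protects the transcript from decay, so that only the second effect is read directly in transcript levels. In the lens, ferritin and heme oxygenase are studied as protection against oxidative damage.

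The hairpins are shown because the iron regulatory proteins act through them on ferritin, ferroportin and Tfrc transcripts. Transcripts of the GENCODE M21 annotation on GRCm38 were searched for an unpaired C, a stem of 5 bases, a loop of 6 bases made of CAGTG and then A, C or T, and 5 bases that pair with the stem. A 5′ UTR hairpin was found in Fth1, Ftl1 and Slc40a1, and 4 hairpins were found in the 3′ UTR of Tfrc. All lie in exons. Each window has 30 bases, is written 5′ to 3′ on the transcript and has the loop in capitals.
Fth1, chr19:9982732-9982761, + strand, 5′ UTR: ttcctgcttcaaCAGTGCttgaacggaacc
Ftl1, chr7:45459778-45459807, - strand, 5′ UTR: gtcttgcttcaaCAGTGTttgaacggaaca
Slc40a1, chr1:45925464-45925493, - strand, 5′ UTR: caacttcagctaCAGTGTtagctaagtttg
Tfrc site 1, chr16:32631219-32631248, + strand, 3′ UTR: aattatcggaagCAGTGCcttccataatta
Tfrc site 2, chr16:32631598-32631627, + strand, 3′ UTR: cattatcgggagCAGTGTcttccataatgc
Tfrc site 3, chr16:32631663-32631692, + strand, 3′ UTR: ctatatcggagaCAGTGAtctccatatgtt
Tfrc site 4, chr16:32631710-32631739, + strand, 3′ UTR: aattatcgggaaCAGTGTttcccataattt

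The same pattern was present in the 5′ UTR of 18 of 13064 genes of the table (0.138%) and in the 3′ UTR of 79 of 13147 genes (0.601%). These UTRs differ in length, and a match is a description and no evidence of binding. The search found no such hairpin in the UTRs of Slc11a2, Ireb2, Aco1, Hmox1 or Ncoa4, which says only that this pattern is not in their annotated UTRs. An iron-responsive element with another form of stem or loop would have been missed, so these genes are not shown to lack such elements.

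The deposited values are log2 CPM, read counts scaled to the size of each library, from which whole reads could be recovered. The libraries held between 40694454 and 44387151 reads on genes, and the 9 genes had between 123 reads (Slc40a1 in Celf1cKO library 2) and 61854 reads (Ftl1 in Celf1cKO library 2) per library. Celf1 itself ranged from 9.34 to 9.95 log2 CPM in Control and from 7.66 to 8.93 in Celf1cKO libraries, which is -1.60 ± 0.335 (standard error) as a log2 fold-change, with an adjusted p of 0.0269 by limma. Crystallin genes took 45.8% to 46.9% of the reads in Control and 34.7% to 38.5% in Celf1cKO libraries, and the scaling factors recovered from the authors' values were 0.887 to 0.964 and 1.06 to 1.12, respectively. Lens fiber markers were abundant throughout, with 9 of 10 in the table at a summed 296705 to 337097 CPM in Control and 236544 to 250947 CPM in Celf1cKO libraries.

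Per length, ferritin light chain and heme oxygenase transcripts were among the most abundant of the lens. In Control lenses Ftl1 stood at 613 ± 38 (SD, n = 3) CPM per kilobase of exon and ranked 38th of 13928 genes with a known length. Hmox1 followed at 287 ± 19 (SD, n = 3), ranking 84th, and Fth1 at 106 ± 7.0 (SD, n = 3), ranking 223rd. These levels are far above those of the other members, which do not exceed the 7.12 ± 0.67 CPM per kilobase of Ireb2. Aco1 at 5.18 ± 0.55 and Tfrc at 5.22 ± 1.18 CPM per kilobase overlapped and did not differ beyond their spread, and Ncoa4 (3.19 ± 0.36), Slc11a2 (2.71 ± 0.08) and Slc40a1 (0.832 ± 0.243) were lower (SD, n = 3 for each). In Celf1cKO lenses Ftl1 (798 ± 148), Hmox1 (371 ± 34.5), Fth1 (94.9 ± 3.56) and Ireb2 (8.91 ± 0.883) kept the first 4 places. Below them Aco1 at 7.50 ± 1.01 stood above Tfrc at 4.71 ± 1.43, while Slc11a2 at 2.97 ± 0.10 and Ncoa4 at 2.88 ± 0.11 CPM per kilobase overlapped (SD, n = 3 for each). Lengths are the union of all annotated exons. With the longest coding transcript as the length, Ftl1, Hmox1 and Fth1 were again the first 3, at 848, 321 and 246 CPM per kilobase, and Ncoa4 rose to the 5th place at 7.35. Levels of Ftl1 and Ncoa4 are uncertain because only uniquely mapped reads were kept. The longest Ftl1 coding transcript matched 7 other annotated genes, and that of Ncoa4 matched 1, a pseudogene, at 95% identity or more over at least 200 bases, and none of these copies was among the genes of the table.

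No member passed all of the study's cut-offs between Celf1cKO and Control lenses. Calls required an adjusted limma p-value under 0.05, an absolute log2 fold-change over 0.58 and an average log2 CPM over 1. Of the 9 members 0 were called, against 7.39% of all genes, of which 4.77% were elevated and 2.63% reduced, and limma voom on the recovered reads also called 0. Scaling by total reads raised the median log2 fold-change of expressed genes from 0.00 to 0.23 and the elevated share of all calls from 64.5% to 89.1%, and called 3 members (Aco1, Ftl1 and Hmox1) and 13.4% of all genes. Without Celf1cKO library 1 there was 1 called member, Aco1 (log2 fold-change 0.63), and 13.8% of all genes were called. By the adjusted p-value alone 1 member, Aco1, was elevated, against 7.85% of all genes. At an unadjusted p-value under 0.05, 4 members passed (Aco1, Hmox1, Ireb2 and Ftl1), against 29.9% of all genes. In 4 members (Ireb2, Aco1, Hmox1 and Slc11a2) each Celf1cKO library was above each Control library, which also held for 19.5% of all genes. The median log2 fold-change was 0.13 over the members, -0.04 over all genes and 0.00 over expressed genes. All 9 members passed the expression cut-off, as did 10640 genes of the table. Of these 10640, 9.68% were called, 3618 had an unadjusted limma p-value under 0.05, and 2457 had each Celf1cKO library above each Control library. Each of these shares was larger than that over all genes. Only the called share has the expression cut-off as a condition, so that genes below it could not be called. In whole lenses, a change in the share of a cell type and a change in RNA per cell cannot be told apart.

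**Figure D1:**
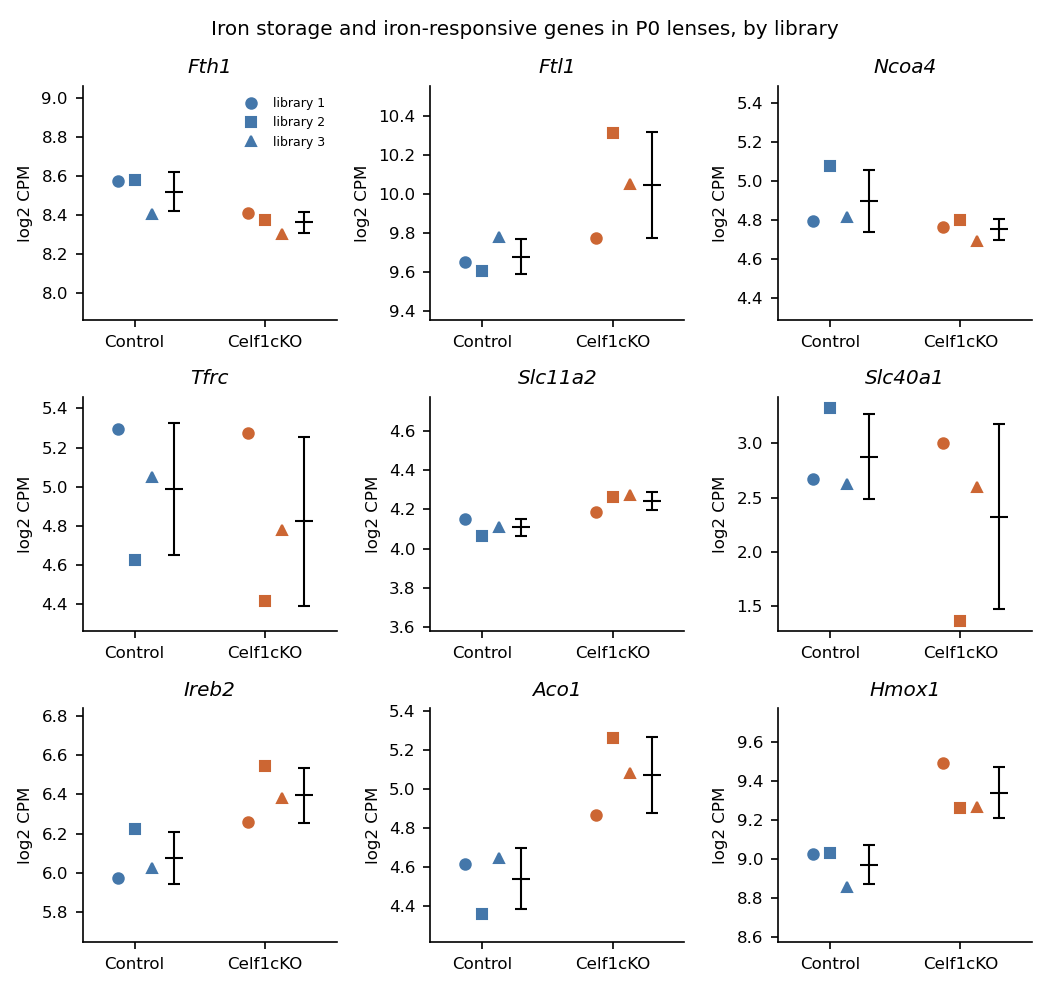
Log2 CPM of each of the 9 genes in the 3 Control (blue) and 3 Celf1cKO (orange) libraries. Circle, square and triangle mark libraries 1, 2 and 3, and the black bars give the mean and SD of each group. Each panel has its own log2 axis. For Ireb2, Aco1, Hmox1 and Slc11a2 the orange points all lie above the blue ones, and for Tfrc library 2 is the lowest of both groups.

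The ferritin subunit genes had differences of opposite sign, neither past the threshold. Ftl1 (ENSMUSG00000050708, chromosome 7 from 45457944 to 45459884, - strand) stood at 9.65, 9.61 and 9.78 log2 CPM in the Control and at 9.77, 10.31 and 10.05 in the Celf1cKO libraries, here and below in the order of library number. Celf1cKO libraries 2 and 3 were above all Control libraries, whereas Celf1cKO library 1 was level with Control library 3. The log2 fold-change was 0.37 (standard error 0.143, 95% confidence interval from 0.03 to 0.70, adjusted p = 0.136 from limma). Without Celf1cKO library 1 the value was 0.50 (adjusted p = 0.0264 from limma), and without Celf1cKO library 2 it was 0.23 (adjusted p = 0.357 from limma). Over all alternatives the adjusted p from limma ran from 0.0264 to 0.357.

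Fth1 (ENSMUSG00000024661, chromosome 19 from 9980598 to 9985098, + strand) had 8.57, 8.58 and 8.41 log2 CPM in Control libraries and 8.41, 8.38 and 8.30 in Celf1cKO libraries. Its groups just met, at Control library 3 and Celf1cKO library 1, and its spread was small. The log2 fold-change of -0.16 had a standard error of 0.084 and a 95% confidence interval from -0.35 to 0.04 (adjusted p = 0.250 from limma), so a fall larger than 0.35 on the log2 scale lies outside it. When every library was scaled by its total reads, the value was 0.07 and thus in the opposite direction.

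Because both values come from the same library, the ratio of heavy to light chain transcripts does not depend on a scaling factor per library. The log2 ratio of Fth1 to Ftl1 in CPM was -1.08, -1.03 and -1.37 in Control libraries and -1.36, -1.94 and -1.75 in Celf1cKO libraries. Celf1cKO library 1 lay within the range of the Control libraries, and libraries 2 and 3 lay below it. In linear terms, Ftl1 had 2.04 to 2.59 times the reads of Fth1 in Control and 2.57 to 3.83 times in Celf1cKO libraries, without regard to gene length. The mean log2 ratio differed by -0.52 between the groups (exact permutation test, two-sided, p = 0.2, where 0.1 is the smallest p that 3 libraries against 3 allow). Within pairs of the same replicate number the ratio was lower in Celf1cKO in all 3, with differences of -0.29, -0.91 and -0.38 (exact sign-flip permutation test with the replicate block, two-sided, p = 0.25, the smallest that 3 pairs allow).

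Ncoa4 (ENSMUSG00000056234, chromosome 14 from 32159865 to 32179855, + strand), the cargo receptor that takes ferritin to lysosomes, had 4.80, 5.08 and 4.82 log2 CPM in Control libraries and 4.77, 4.80 and 4.69 in Celf1cKO libraries. The groups overlapped, and Control library 2 was the highest of all. The log2 fold-change was -0.14 (95% confidence interval from -0.40 to 0.12, adjusted p = 0.419 from limma), and scaling by total reads gave 0.08. Without Control library 2 it was -0.05.

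**Figure D2:**
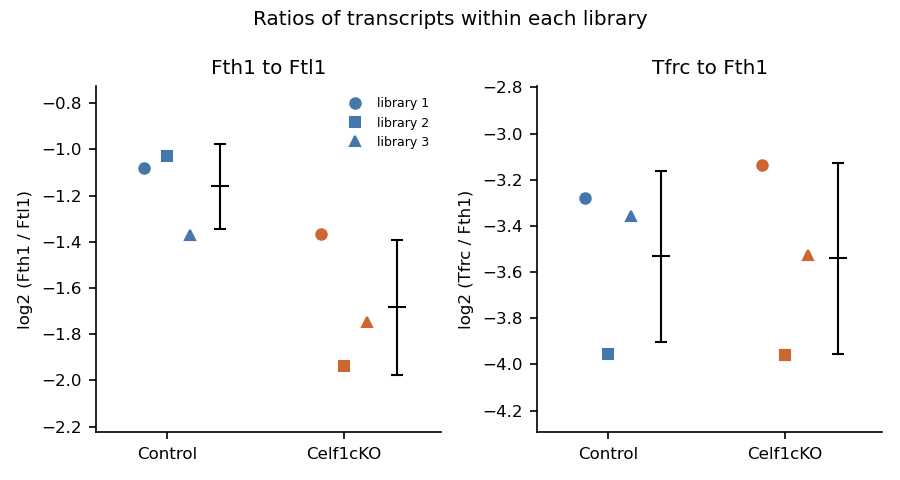
Log2 ratio of Fth1 to Ftl1 (left) and of Tfrc to Fth1 (right) within each library, with Control in blue and Celf1cKO in orange, markers for libraries 1 to 3 and black bars for the mean and SD. Celf1cKO libraries 2 and 3 have the lowest ratios of Fth1 to Ftl1, while the ratio of Tfrc to Fth1 has nearly the same mean in both groups.

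Transcripts of the iron regulatory proteins were higher in every Celf1cKO library. Aco1 (ENSMUSG00000028405, chromosome 4 from 40143081 to 40198338, + strand), which encodes an aconitase that binds RNA once it has lost its iron-sulphur cluster, had 4.61, 4.36 and 4.65 log2 CPM in Control libraries and 4.87, 5.26 and 5.08 in Celf1cKO libraries. The groups did not overlap. Its log2 fold-change of 0.53 (standard error 0.137, 95% confidence interval from 0.21 to 0.85) was the largest rise of the members, a 1.44-fold difference, with an adjusted p of 0.0482 from limma. This call by adjusted p was narrow. It was lost with the replicate number as a block (adjusted p = 0.0576 from limma) and was reached in 6 of 16 alternative fits, over which the adjusted p from limma ran from 0.0160 to 0.163. It was lost without each library in turn except Celf1cKO library 1, without which it was 0.0191. The log2 fold-change stayed between 0.43 and 0.63 in the fits that left out a library. In the 5 of these that lost the call, fewer genes of the whole table were called as well, 1 to 596 against 1030.

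Ireb2 (ENSMUSG00000032293, chromosome 9 from 54863789 to 54912530, + strand), whose protein is degraded when iron is plentiful, had 5.97, 6.22 and 6.02 log2 CPM in Control libraries and 6.26, 6.54 and 6.38 in Celf1cKO libraries. Celf1cKO library 1 exceeded Control library 2 only narrowly, and libraries with the same number ranked alike in both groups. The log2 fold-change was 0.32 (standard error 0.109, 95% confidence interval from 0.07 to 0.58, adjusted p = 0.0987 from limma), and with the replicate block the adjusted p from limma was 0.0457. Without Celf1cKO library 1 it was 0.0487, and over all alternatives it ran from 0.0126 to 0.290.

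Hmox1 (ENSMUSG00000005413, chromosome 8 from 75093621 to 75100589, + strand), which opens the heme ring and releases its iron, had 9.03, 9.03 and 8.86 log2 CPM in Control libraries and 9.49, 9.26 and 9.27 in Celf1cKO libraries. All Celf1cKO libraries were above all Control libraries, with Celf1cKO library 1 the highest. The log2 fold-change was 0.37 (standard error 0.10, 95% confidence interval from 0.13 to 0.60), or 1.29-fold. The adjusted p from limma was 0.0560, just short of the threshold, 0.0491 with the replicate block, and 0.00527 to 0.150 over all alternatives. With that block 15.2% of all genes passed the threshold.

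The transporters gave smaller or less even differences. Tfrc (ENSMUSG00000022797, chromosome 16 from 32608920 to 32632794, + strand), which binds iron-loaded transferrin, had 5.29, 4.62 and 5.05 log2 CPM in Control libraries and 5.28, 4.41 and 4.78 in Celf1cKO libraries. In both groups library 1 was the highest and library 2 the lowest, and this spread within groups was wider than the gap between them. The log2 fold-change was -0.17 (standard error 0.248, 95% confidence interval from -0.75 to 0.41, adjusted p = 0.692 from limma and 0.278 with the replicate block). Its sign turned when libraries were scaled by total reads (0.06) and without Celf1cKO library 2 (0.04). It was -0.01 without Control library 1, -0.35 without Control library 2 and -0.39 without Celf1cKO library 1.

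The log2 ratio of Tfrc to Fth1 sets a transcript of iron import against a transcript of iron storage. This ratio does not show the translation of ferritin, so it does not measure the balance of import and storage. It was -3.28, -3.96 and -3.36 in Control libraries and -3.13, -3.96 and -3.53 in Celf1cKO libraries. The groups lay on top of each other, with means of -3.53 ± 0.37 and -3.54 ± 0.41 (SD, n = 3 in each; exact permutation test, two-sided, p = 0.9).

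Slc11a2 (ENSMUSG00000023030, chromosome 15 from 100387898 to 100425072, - strand) was the most even of the members, with 4.15, 4.06 and 4.11 log2 CPM in Control libraries and 4.19, 4.26 and 4.28 in Celf1cKO libraries. The groups did not overlap but lay close together. The log2 fold-change was 0.13 (95% confidence interval from -0.10 to 0.37, adjusted p = 0.405 from limma).

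Slc40a1 (ENSMUSG00000025993, chromosome 1 from 45908068 to 45926523, - strand), the iron exporter, had 2.68, 3.33 and 2.62 log2 CPM in Control libraries and 3.0, 1.37 and 2.60 in Celf1cKO libraries. Celf1cKO library 2 stood far below the other 5, which overlapped. The log2 fold-change of -0.55 (standard error 0.423, 95% confidence interval from -1.54 to 0.44, adjusted p = 0.414 from limma) rested on that library, and without it the value was -0.07 (adjusted p = 0.911 from limma). It was -0.33 without Control library 2 and -0.89 without Celf1cKO library 1.

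**Figure D3:**
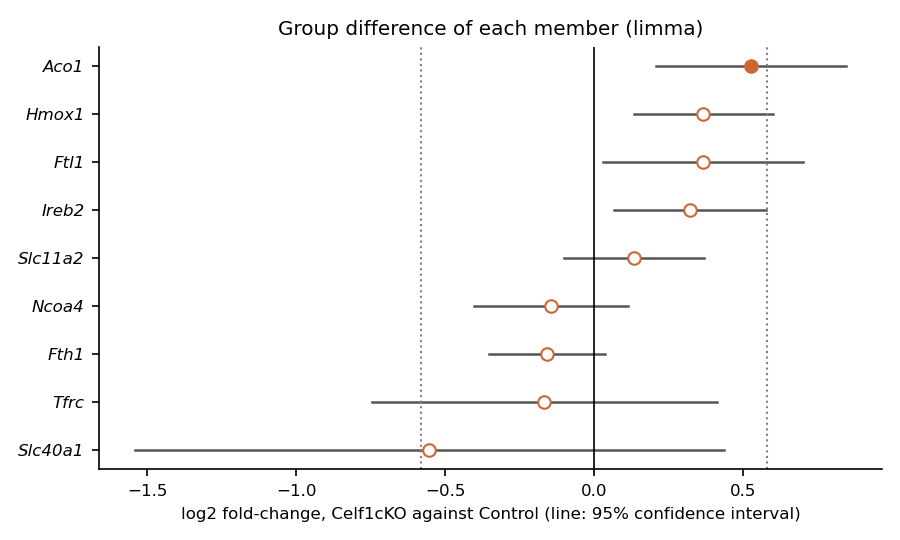
Log2 fold-change of each of the 9 genes between Celf1cKO and Control lenses (points) with the 95% confidence interval from limma (lines). The filled point, Aco1, has an adjusted p under 0.05, and the dotted lines mark the study's cut-off of 0.58 in either direction, which no point passes.

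Markers of other cells were read beside these values. The endothelial markers, 6 of 6 in the table, summed to 85.2 to 102 CPM in Control libraries and to 100, 21.7 and 47.3 CPM in Celf1cKO libraries 1 to 3, so that Celf1cKO library 2, where Slc40a1 was lowest, also had the least of them. Pecam1, Cdh5 and Kdr, which define endothelium, were at 0.89, 1.05 and 1.25 log2 CPM in that library, and Emcn and Tie1 at -0.55 and 0.16. Tek, of the same list, fell less, to 3.79 log2 CPM there against 4.31 to 4.60 in Control libraries. The lens epithelial markers, 6 of 6 in the table, summed to 590 to 620 CPM in Control libraries and to 492, 180 and 373 CPM in Celf1cKO libraries 1 to 3. They were uneven, and only Foxe3 (log2 fold-change -2.01) and Pdgfra (-1.54) were called reduced. Pax6 fell less, by -0.37. Gja1 was at 6.30 log2 CPM in Celf1cKO library 3, against 5.57 to 6.29 in Control libraries. Macrophages also express Slc40a1 and Hmox1, and the 10 of 12 macrophage markers in the table summed to 9.09 to 17.7 CPM in Control and 8.85 to 14.2 CPM in Celf1cKO libraries, which overlap. Of 10 erythroid markers only Alas2 was in the table, at 0.431 to 1.35 CPM in Control and 0.0412 to 0.489 CPM in Celf1cKO libraries. The pigment cell markers, 5 of 6 in the table, overlapped at 3.58 to 22.0 and 6.78 to 26.9 CPM. The part of these cells in the members' values was not tested.

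**Figure D4:**
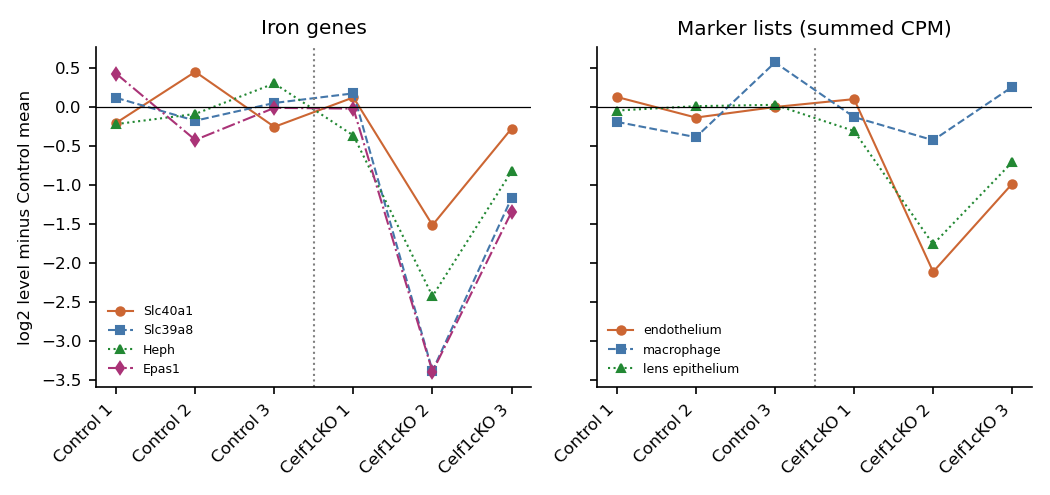
Left, log2 CPM of Slc40a1, Slc39a8, Heph and Epas1, and right, log2 of the summed CPM of 3 marker lists, each minus its Control mean, for the 6 libraries. The dotted vertical line separates the groups. The 4 iron genes and all 3 marker lists are lowest in Celf1cKO library 2, at 21.7 CPM for the endothelial list. The macrophage list, at 8.85 CPM there, was close to the 9.09 CPM of Control library 2. Slc39a8 and Epas1 were picked because that library was far below the rest, so their place in it was set by the choice. Slc40a1 and Heph are also a selection, and the members Ftl1, Aco1 and Ireb2 were highest in that library.

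Among 68 genes of iron uptake, storage, export, regulation, heme and iron-sulphur clusters, a list that includes the 9 members, 63 were in the table. Of these, 4 were elevated, 2 were reduced and 57 were not called, with a median log2 fold-change of 0.06. The share called, 9.52%, was near the 7.39% of all genes, so the counts by role below describe single genes and not the list. Without Control library 2 or Celf1cKO library 3, 0 genes of the list and 1 of all genes were called. The list had 3 called genes without Control library 1 or Celf1cKO library 2 and 12 without Celf1cKO library 1. In the fits that left out a library, the adjusted p from limma was under 0.05 in 4 for Uros and Pcbp2 and in 3 for Glrx5. It was so in 2 for Flvcr1 and in 1 each for Cp and Cybrd1. Over these fits the log2 fold-change of Uros stayed between 1.01 and 1.23. That of Glrx5 stayed between 0.758 and 0.999 and that of Pcbp2 between 0.55 and 0.64. The range was 0.65 to 0.88 for Flvcr1, -0.80 to -0.54 for Cp and -1.54 to -1.11 for Cybrd1. The highest value was that of Uros, an enzyme of heme synthesis, which was 3.47 ± 0.06 in Control and 4.56 ± 0.25 log2 CPM in Celf1cKO lenses (SD, n = 3 per group), a rise of 1.08 (adjusted p = 0.0106 from limma). It was the only called gene of the 14 in the heme list. Glrx5, a mitochondrial glutaredoxin of iron-sulphur cluster assembly, rose by 0.85 (adjusted p = 0.0155 from limma) and was the only called gene among 19 of mitochondrial iron and iron-sulphur clusters.

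Of the 5 storage genes in the table, the called gene was Pcbp2, whose protein can hand iron to ferritin, which rose by 0.60 (adjusted p = 0.0109 from limma). The related Pcbp1 had 0.57 (adjusted p = 0.0149 from limma) and missed the cut-off on size alone. Among the 6 export genes, the heme exporter Flvcr1 rose by 0.75 (adjusted p = 0.0308 from limma), and Cp, the ferroxidase ceruloplasmin, was reduced, with -0.64 (adjusted p = 0.0308 from limma). Among the 11 uptake genes the ferric reductase Cybrd1 was reduced, at -1.29 (adjusted p = 0.0361 from limma) and with an average log2 CPM of 1.003, just past the cut-off of 1, and of the 8 regulators 0 were called. With the replicate block 7 genes of the list and 9.18% of all genes were called, the added one being Alad, of heme synthesis, at -0.75 (adjusted p = 0.0224 from limma, 0.0799 without the block).

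Among genes whose groups did not overlap, Heph, a ferroxidase that works with ferroportin, and Steap2, a metalloreductase, were also lower, at -1.20 (adjusted p = 0.148 from limma) and -0.85 (adjusted p = 0.140 from limma). Heph had 3.83, 3.96 and 4.35 log2 CPM in Control libraries and 3.69, 1.63 and 3.23 in Celf1cKO libraries, and without Celf1cKO library 2 its log2 fold-change was -0.59. Slc39a8, a metal importer, and Epas1, a hypoxia-inducible factor, were picked out with their values known because Celf1cKO library 2 was again far below the rest, at -0.38 and 1.26 log2 CPM. Their log2 fold-changes were -1.45 and -1.58 (adjusted p = 0.253 and 0.203 from limma) and, without that library, -0.49 and -0.68.

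**Figure D5:**
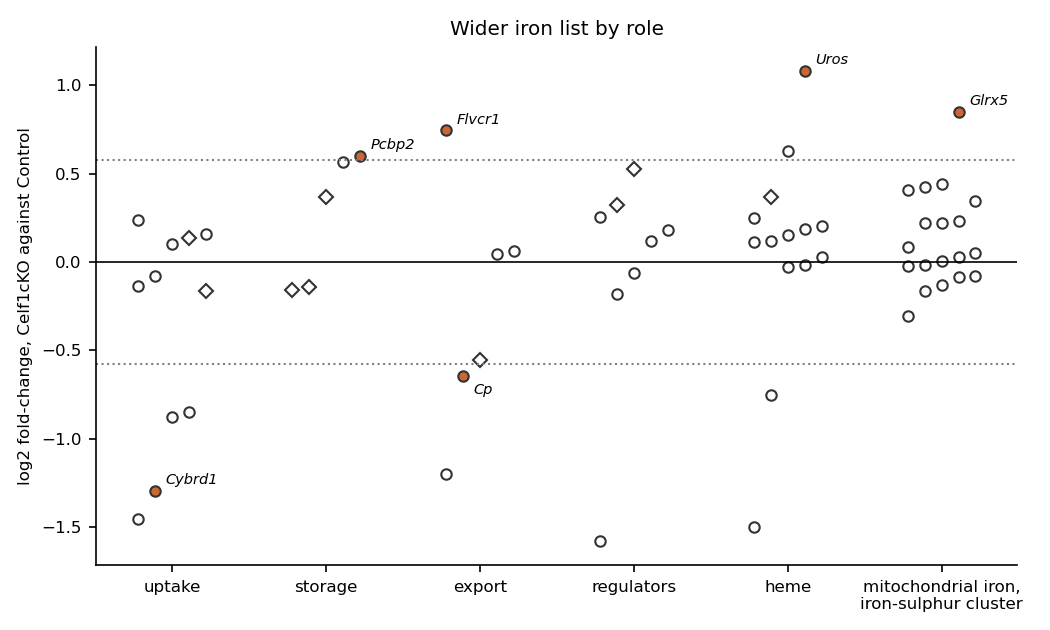
Log2 fold-change between Celf1cKO and Control lenses of the 63 measured genes of the wider iron list, by role. Diamonds are the 9 members, circles the other genes, and filled symbols the 6 called genes, which are named. The dotted lines mark 0.58 in either direction.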

How the data were processed

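Adaptor trimming by the authors was followed by alignment to GRCm38.p6 with STAR (2.7.8a), and uniquely mapped reads were counted per gene with featureCounts (2.0.0), dropping genes of low CPM. The authors used edgeR and deposited log2 CPM per library, whose values show a library scaling factor and a prior count. The authors' fold-changes, F score, p-value and FDR were not used, and their average log2 CPM served as the expression cut-off. Whole reads were recovered from the spacing of low values (100% whole within 0.1 read).

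Groups came from the sample titles. The fit used limma (3.58.1 in R 4.3.3) with a variance trend on all 13931 genes and Benjamini-Hochberg adjustment over all of them. The methods call the pools biological replicates. Whether each pool came from separate animals is not given in the sources used here, and p-values measure the spread between these libraries. Same-numbered libraries deviated together from their group means (correlations across genes of 0.26, 0.39 and 0.38). Libraries with unlike numbers were not compared in this way, so these values do not establish a pairing. The reported fit left the replicate numbers out, and a block on the numbers was run as an alternative. Whether the numbers mark a litter or day is not given in the sources used here. Near-identical copies were found with blastn (2.17.0). The members and lists were chosen with earlier results of these data known. The named genes were all members, each called gene of the wider list, the 5 largest changes there among genes whose groups did not overlap, Celf1, the defining markers, and the few others named after their values were seen.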

Additional observations from a re-analysis of the deposited data

How the results depend on the processing

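The count of called members was 0 in 14 of 16 alternative fits and 3 (Ftl1, Aco1 and Hmox1) with total read scaling, which moved the median log2 fold-change of expressed genes to 0.23. By adjusted p alone it was 1. Counts for the wider list and all genes were 3 and 421 with no variance trend and 12 and 1867 with total read scaling, when 89.1% of calls were elevated against 64.5% in the reported fit, and 1655 of all genes passed by adjusted p alone. Leaving out single libraries, the counts went from 0 to 1 for the members, from 0 to 12 for the wider list and from 1 to 1916 for all genes. The lowest of the last 2 came without Control library 2 or Celf1cKO library 3 and the highest without Celf1cKO library 1. The replicate block gave 0, 7 and 1279, and among members it changed the adjusted p call of Aco1, Ireb2 and Hmox1 and no other. Under total read scaling Fth1, Tfrc and Ncoa4 had log2 fold-changes of 0.0692, 0.0597 and 0.0826, opposite in sign to those reported. The group difference in the log2 ratio of Tfrc to Fth1 changed sign with quantile normalization (0.0116) and ranged from -0.221 to 0.201, and the log2 fold-change of Tfrc from -0.393 to 0.0374, with a library left out. The group difference in the log2 ratio of Fth1 to Ftl1 was below 0 in every setting run. However, the replicate block leaves it unchanged by construction, and log2(CPM + 1) can hardly move it for genes this abundant. With log2(CPM + 1) it was -0.523, with quantile normalization -0.694, and with a library left out it ranged from -0.683 to -0.396. The causes were not tested.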
